A study of Mus musculus with 137 samples.

Results

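The lungs described here came from old mice that had received only saline, and were collected on day 56 (11 lungs) or day 14 (6 lungs) after it. They were chosen by their treatment, age and day labels, and make up 17 lung libraries, beside 120 others in the series. All libraries were poly-A RNA-seq from male C57BL/6J mice, an inbred laboratory strain, with no engineered allele named in the labels. Old mice were 21 months of age and young mice 8 to 12 weeks. Mice of the other arm were given bleomycin, after which injured lungs scar, at a dose of 0.63 mg/kg if old and 0.7 mg/kg if young. Saline and bleomycin were instilled into the trachea. Each library came from 20 mg of lung, so airways, vessels, blood and alveoli were measured together. In such bulk samples, fewer cells of a type and less RNA per cell cannot be told apart. The 23 old saline lungs of days 21, 28, 35 and 42 lie between the compared days and were used to follow the trend. Young saline lungs of day 14 (5) and day 56 (5) and untreated lungs (5 old, 4 young) were used for comparison. Nothing in the labels states whether the old mice of day 56 were older at instillation than those of day 14, nor the hour at which lungs were taken. Nothing in the labels ties the lungs of a group to separate cohorts, so p-values measure only the spread between these samples.

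The alveolus is lined by flat type 1 cells, which exchange gas, and by type 2 cells, which make surfactant. Club and ciliated cells line the conducting airways, and resident macrophages, lymphocytes and plasma cells add an immune compartment that is known to grow with age. Instilled saline is cleared quickly and leaves no scar, so lungs given saline serve as the uninjured reference at each day of a fibrosis time course. A change in that reference enters every comparison made against it.

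Depth was 18728928 to 23632338 counted reads per library at day 14 and 17825627 to 23231975 at day 56, within the 14908959 to 31019168 of the whole series. The day 56 lungs carry 2 separate runs of consecutive library numbers, the first holding replicates 1 to 6 and the second replicates 7 to 11. The labels do not say what these runs were. Within its group, each of the 17 libraries had a median Spearman rho of at least 0.988 with the others across genes. Among the days between, replicate 6 of day 42 stood apart at 0.965 and replicate 5 of day 28 at 0.980.

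Over 6 weeks the old saline lung changed little. Of 18396 genes tested, 37 passed an adjusted p of 0.05 in edgeR's quasi-likelihood test with Benjamini-Hochberg adjustment over all genes, which is 0.201% of them. Of these, 20 were higher (0.109%) and 17 lower (0.0924%) at day 56. At an unadjusted p of 0.05, 2117 genes (11.5%) passed. The median absolute log2 change was 0.09, below the median SD of log2 CPM (counts scaled to a library of 1000000) between lungs of the same day, which was 0.14 at day 14 and 0.15 at day 56. The 95% interval of the change lay inside 2-fold in either direction for 16464 of the 18394 genes with an interval (89.5%), and inside 1.5-fold for 13356 (72.6%). This share followed the level of the gene. It was 99.6% for genes averaging above 6 on the log2 CPM scale and 54.2% for those below 0, so a 2-fold drift of a gene of low level was often not detectable at this depth.

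**Figure D1:**
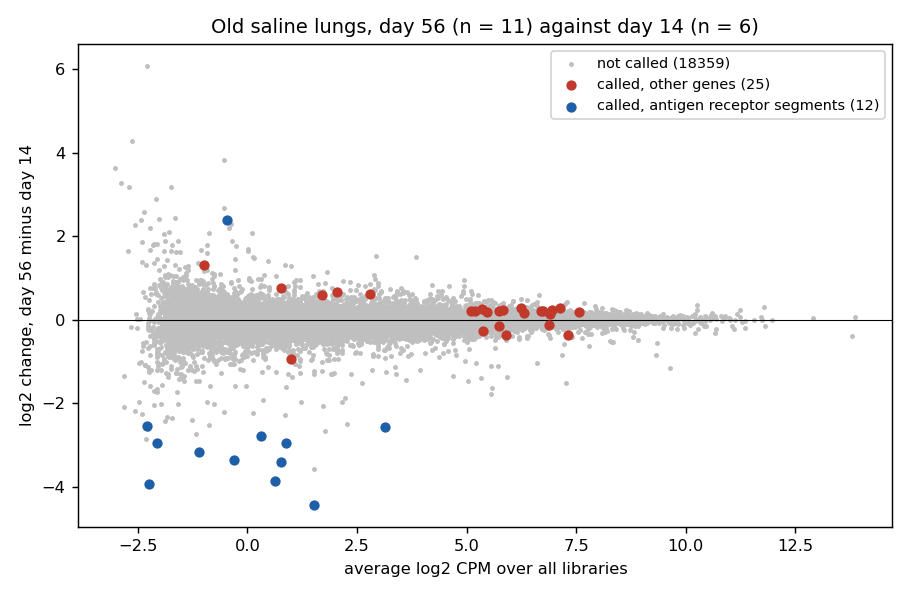
Each point is 1 of 18396 genes, by its average log2 CPM over all libraries (horizontal axis) and its log2 change from day 14 to day 56 in old saline lungs (vertical axis). Grey points were not called. The called genes form a low-level set of antigen receptor segments, mostly far below 0 (blue, 12), and a set of other genes close to 0 (red, 25).

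The genes that define the cell types of the alveolus held their level. Sftpc, the surfactant protein made by type 2 cells, was at 10850 to 14710 CPM at day 14 (median 12070) and at 10510 to 14810 at day 56 (median 13100). Its log2 change was 0.07, with a 95% interval of -0.24 to 0.39. Ager, a receptor abundant on type 1 cells, was at 1720 to 1986 CPM (median 1849) and 1631 to 2155 (median 1922). Pecam1, an adhesion molecule of endothelium, was at 769 to 901 CPM (median 868) and 808 to 939 (median 895), a log2 change of 0.04 (-0.09 to 0.17). In all of these genes the groups overlapped. All 12 type 2 genes and all 12 type 1 genes had intervals inside 1.5-fold, as did all 16 genes of capillary and general endothelium and all 10 of pericytes.

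Genes of scar matrix did not pass the test either. Col1a1, the main chain of type I collagen, was at 347 to 450 CPM at day 14 (median 372) and at 317 to 436 at day 56 (median 360). Its log2 change was -0.04, with an interval of -0.52 to 0.45. In the list of 27 interstitial matrix genes none was called, all 27 intervals lay inside 2-fold, and the median change was 0.04, against 0.00 over all genes. The 20 basement membrane genes and the 21 genes of collagen processing and cross-linking had no call and medians of 0.02 and 0.06. The same held for 14 TGF-beta ligands and targets, with a median of 0.06.

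**Figure D2:**
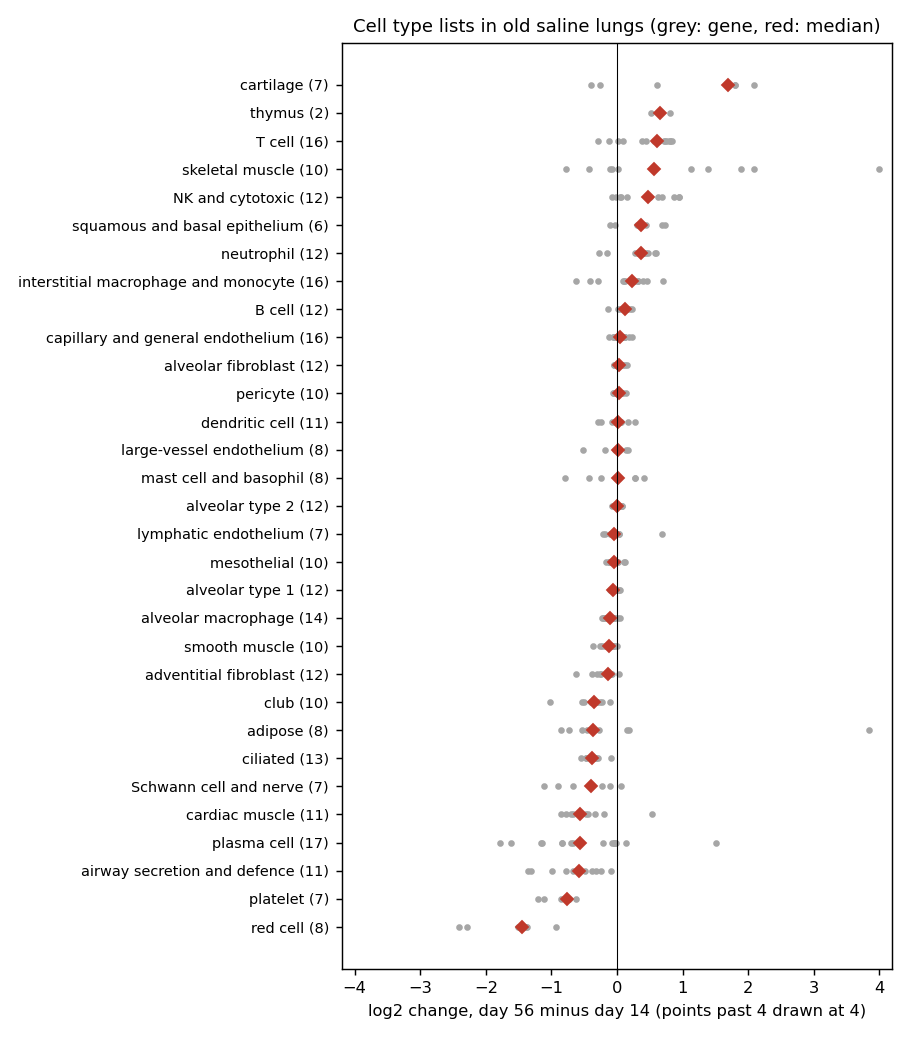
Log2 change from day 14 to day 56 in old saline lungs for the genes of each cell type list (grey points, 1 per gene, number of measured genes in brackets) and the median of each list (red diamonds). Alveolar, endothelial and fibroblast lists sit near 0, airway and blood lists below it, and T cell and cytotoxic lists above it. Of all genes drawn, Col11a2 in the cartilage list was called.

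Of the 37 called genes, 25 were not antigen receptor segments, 19 higher and 6 lower. Their changes were small: 19 of the 25 had an absolute log2 change under 0.5. The largest rise among those named by rule was in Insl3, which encodes an insulin-like peptide hormone best known from the testis. It was at 1.94 to 3.41 CPM at day 14 (median 2.75) and at 2.79 to 5.37 at day 56 (median 4.55). 10 of the 11 day 56 lungs lay above the highest day 14 lung. The log2 change was 0.68 ± 0.14 (SE; adjusted p = 0.00687). Insl3 (GRCm38 chromosome 8, 71689214 to 71690575, plus strand) lies inside the annotated span of Jak3 on the same strand, so reads of the pair may not be separable. Jak3, a kinase of cytokine receptors in lymphocytes, had a log2 change of 0.22 (adjusted p = 0.322).

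Col11a2, a collagen chain of cartilage, rose by 0.61 ± 0.15 on the log2 scale (adjusted p = 0.0483). It was at 4.41 to 6.35 CPM at day 14 (median 5.48) and at 5.74 to 13.2 at day 56 (median 8.34), and the groups overlapped. The cartilage list as a whole had a median log2 change of 1.70 over 7 measured genes, with 1 called. Of these 7 genes, 5 were positive and 2 negative, and 5 had an unadjusted p under 0.05, against 11.5% of all genes. In a slope over all days from 14 to 56, 3 of them were called rising, against 2.73% of all genes. Some were sparse: Matn1 had no reads in 6 of the 17 compared lungs, and Acan and Cnmd none in 2 each. The summed level of the list was 15.5 to 32.7 CPM at day 14 and 13.1 to 47.3 at day 56. In young lungs Col11a2 changed by 0.65 ± 0.18 (adjusted p = 0.0883), and the difference between ages was -0.04 ± 0.24.

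Several genes of different function rose by smaller amounts. Zdhhc18, which attaches palmitate to proteins, was at 102.4 to 114.1 CPM at day 14 (median 109.1) and 120.7 to 149.9 at day 56 (median 124.9), with no overlap between the groups. Across all genes the groups did not overlap in 48 of 18396 (0.261%), and among the 25 called genes in 4, namely Zdhhc18, Odc1, Larp1 and Mir24-1. The log2 change of Zdhhc18 was 0.23 ± 0.05 (adjusted p = 0.0103). Fes, a tyrosine kinase of myeloid cells, went from a median of 66.1 CPM to 81.5 and rose by 0.28 ± 0.07 on the log2 scale (adjusted p = 0.0447). On the days between, its median stood at 70.6 CPM first (day 21), then at 78.6 (day 28), 78.9 (day 35) and 79.9 (day 42). Hnrnpa0, an RNA-binding protein, rose by 0.28 and Usf2, a transcription factor that binds E-boxes, by 0.24. Elk4, an ETS factor that partners the serum response factor, rose by 0.21, and so did the ubiquitin ligase Znrf1 and the galactosyltransferase B4galt3. The lysosomal membrane protein Cln3 rose by 0.22, and the ubiquitin ligase Rnf166 by 0.26. Rab43, a small GTPase of Golgi traffic, rose by 0.59 ± 0.14 from a median of 2.25 CPM to 3.41. It overlaps the annotated protein coding gene Gm45140 on the same strand, so reads of the pair may not be separable. Gm45140 had a log2 change of 0.05 (adjusted p = 0.979).

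Among the 6 falls other than segments, Odc1 was the one whose groups did not overlap. It encodes ornithine decarboxylase, the rate-limiting enzyme of polyamine synthesis. Its level was 65.5 to 84.7 CPM at day 14 (median 75.9) and 50 to 64.1 at day 56 (median 58.5), so every day 56 lung lay below every day 14 lung. The log2 change was -0.37 ± 0.08 (adjusted p = 0.0124). Over the days between, the median was 74.04 CPM (day 21), 61.2 (day 28), 62.7 (day 35) and 58.5 (day 42). In untreated old lungs it was 60.6 CPM, near the later days.

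Arrdc3, an arrestin-like protein that directs receptors to endosomes, was at 159 to 243 CPM at day 14 (median 178) and at 123.9 to 184.5 at day 56 (median 141.2). The groups overlapped, and the highest value belonged to replicate 4 of day 14. The log2 change was -0.36 ± 0.09 (adjusted p = 0.0464), and without that library the adjusted p was 0.298. Apol7c, a member of the apolipoprotein L family with close paralogues that counting may not separate, was at 1.204 to 5.01 CPM at day 14 and 1.01 to 1.78 at day 56. Its log2 change was -0.94 ± 0.20 (adjusted p = 0.0103), and without replicate 1 of day 14, its highest lung, the adjusted p was 0.175. Odr4 and Yme1l1, a protease of the inner mitochondrial membrane, fell by 0.15 and 0.12 on the log2 scale.

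**Figure D3:**
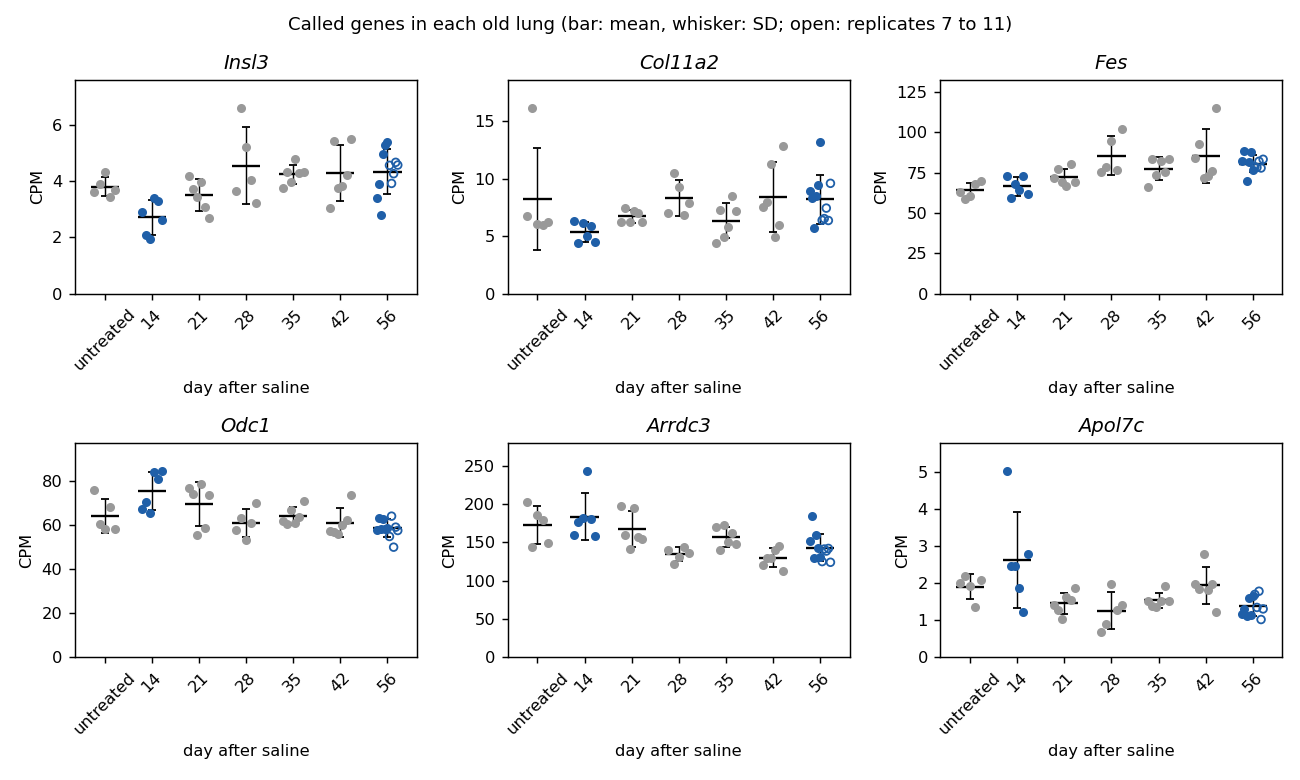
CPM of 6 called genes in each old lung, by day after saline, with untreated old lungs at the left. Points are lungs, bars are means and whiskers SDs; blue marks the compared days and open circles replicates 7 to 11. Odc1 is the gene here whose day 14 and day 56 lungs do not overlap, and in Apol7c 1 day 14 lung at 5.01 CPM stands above the rest.

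None of the 17 genes named by rule kept its call in all 17 fits that left out 1 of the compared lungs. Insl3 and Apol7c kept it in 16, Zdhhc18 in 15, and Odc1 and Znrf1 in 14, while Cln3 kept it in 3 and Rab43 in 4. No direction changed in any of these fits. The number of called genes ranged from 12 without replicate 6 of day 56 to 59 without replicate 3 of day 14.

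The 23 lungs of days 21 to 42 were not used to pick these genes. Of the 25 genes, 22 had a slope over those days with the sign of their change (88%), against 56.9% of all genes tested. Of all 37 called genes, 6 were called in that slope, each with the same sign, against 8.35% of all genes. Those named here were Rab43, with 0.24 ± 0.05 log2 per week, Odr4 with -0.06 ± 0.01, Hnrnpa0 with 0.08 ± 0.02 and Elk4 with 0.07 ± 0.02. Without replicate 6 of day 42, Odr4 kept its call, and the other 3 lost theirs, at adjusted p = 0.0887 for Rab43, 0.0929 for Hnrnpa0 and 0.0614 for Elk4.

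Plasma cells assemble antibodies from rearranged V segments, and each plasma cell clone transcribes its own. The largest changes among the called genes were falls of 11 immunoglobulin V segments, at log2 changes of -2.55 to -4.43. The level at day 14 sat mostly in single lungs. Igkv4-74, a kappa light chain segment, was at 71.2 CPM in replicate 1 of day 14 and at 0.105 to 1.40 in the other 5. At day 56 it was at 0.0485 to 1.84 CPM. Ighv1-7, a heavy chain segment, was at 71.4 CPM in replicate 3 of day 14 and at no more than 2.15 in the others, and at 0.151 to 4.57 at day 56. For 6 of the 11 segments, over 80% of the summed day 14 CPM came from 1 lung. The leading lung was replicate 3 for 4 segments, replicate 6 for 3, replicate 1 for 2, and replicates 2 and 4 for 1 each. Ighv1-26 was spread more widely, at 8.96 to 88.8 CPM over the 6 day 14 lungs and 3.12 to 12.6 over the 11 of day 56.

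The plasma cell list, which holds general genes of these cells, had no call among 17 measured genes and a median log2 change of -0.57. The B cell list had no call among 12 and a median of 0.12. The single T cell receptor segment called, Trbv13-3, was higher at day 56 by 2.40 ± 0.52 (adjusted p = 0.0124). That rise came from replicate 6, at 22.0 CPM, and replicate 5, at 7.10 CPM, while the other 9 lungs were at 0.133 to 0.873 and the day 14 lungs at 0.185 to 1.07.

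The same pair of lungs carried more RNA of T cell genes in general. Summed over the T cell list, replicate 6 of day 56 was at 1001 CPM and replicate 5 at 443, against 155 to 239 in the other 9 and 150 to 311 at day 14. Thy1, a surface protein of T cells and of some fibroblasts and nerve cells, was at 174 and 85.2 CPM in them and at 33.2 to 43.5 in the rest. Of 16 T cell genes, 14 had a positive log2 change and none was called, with a list median of 0.61. Of 12 genes of natural killer and cytotoxic cells, 10 were positive and none was called (median 0.48). Such a lung also occurred without any instillation: 1 of 5 untreated old lungs had a T cell sum of 1255 CPM, while the young lungs ranged from 106.1 to 164.7.

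The 2 runs of day 56 libraries did not give the same number of calls. The first run, replicates 1 to 6, against day 14 gave 38 calls (0.207%), 24 higher (0.13%) and 14 lower (0.0761%). The second run, replicates 7 to 11, gave none (0%), with 1528 genes at an unadjusted p under 0.05 and a smallest adjusted p of 0.101 in edgeR. DESeq2 gave 12 for the latter. Without replicate 6, the former gave 0 calls in edgeR and 1169 genes at an unadjusted p under 0.05. Tested directly against each other, the runs differed in 1 gene of 18396 (0.00544%), an antigen receptor segment. Of the named genes, Insl3 had a log2 change of 0.66 ± 0.15 in the first run and 0.70 ± 0.16 in the second, and Odc1 one of -0.34 ± 0.09 and -0.40 ± 0.10. Col11a2 had 0.74 ± 0.17 and 0.43 ± 0.18. Genes of the main comparison were named only if the medians of both runs lay on the side of the change from the day 14 median. Their shared direction was thus required by the choice, and both runs were set against the same day 14 lungs.

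Airway genes sat lower at day 56 without passing the test. Of 10 club cell genes, 13 ciliated cell genes and 11 genes of airway secretion and defence, all had a negative log2 change, with medians of -0.35, -0.38 and -0.57. The median over all genes was -0.001. None of the airway genes was called after adjustment, and 5, 8 and 4 of them had an unadjusted p under 0.05, against 11.5% of all genes. Scgb1a1, the secretoglobin of club cells, was at 12060 to 24810 CPM at day 14 (median 19850) and at 12200 to 17920 at day 56 (median 14590), and every day 56 lung lay below the day 14 median. Its log2 change was -0.40 ± 0.18 (adjusted p = 0.365). Foxj1, the factor that sets up motile cilia, had -0.39 ± 0.18, and Mlf1 -0.55 ± 0.19. The summed ciliated list was at 488 to 913 CPM at day 14 (median 833) and at 558 to 758 at day 56 (median 658). In untreated old lungs it was at 741 to 998 CPM, and 3 of 13 ciliated genes were called higher in old than in young untreated lungs, a comparison that called 5.55% of all genes.

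Muscle lists did not share a direction, and none of their genes was called. The cardiac muscle list, which in mouse lung covers the muscle sleeve of pulmonary veins, had a median log2 change of -0.56 with 10 of 11 genes negative. Its summed level was 162 to 646 CPM at day 14 and 65.2 to 772 at day 56. The 10 smooth muscle genes were all negative, at a median of -0.12, with all intervals inside 2-fold. The skeletal muscle list had a median of 0.57, with 6 of 10 genes positive. Its summed level was 8.64 to 19.8 CPM at day 14 and 5.59 to 42.03 at day 56, the highest in replicate 2.

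Genes of blood cells varied between lungs, above all at day 14, where the median SD of log2 CPM was 1.46 in the red cell list and 1.13 in the platelet list. At day 56 these were 0.85 and 0.45. The 8 red cell genes, among them the globins Hba-a1 and Hbb-bs, were all negative with a median of -1.45 and none called. Of these, 7 had an unadjusted p under 0.05, against 11.5% of all genes. The summed red cell list was at 408, 298, 631, 48.5, 78.6 and 368 CPM in replicates 1 to 6 of day 14 and at 30.6 to 247 at day 56. So 4 of the 6 day 14 lungs lay above all day 56 lungs and the other 2 within their range. The 7 platelet genes were all negative too, at a median of -0.76, with none called and all 7 at an unadjusted p under 0.05. One day 14 lung, replicate 6, had a platelet sum of 379 CPM, and the other 5 were at 49.8 to 103.3, inside the 44.5 to 115.5 of day 56.

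The circadian clock runs as a loop in which Arntl and Clock drive Per, Cry and Nr1d genes, and Dbp, Tef and Hlf report its output, so tissue taken at another hour differs in these genes. None of the 16 clock genes was called between day 14 and day 56. Dbp was at 22.3 to 83.2 CPM at day 14 (median 40.3) and at 6.16 to 48.3 at day 56 (median 23.3), a log2 change of -0.85 ± 0.29 (adjusted p = 0.217). Per3 had -0.48 ± 0.13 (adjusted p = 0.106), Tef -0.37 ± 0.10 (0.0976) and Arntl 0.27 ± 0.11 (0.299). Of 11 genes of the negative limb and outputs, 10 were negative, with a median of -0.34. In the first run of day 56 libraries Dbp had -1.42 ± 0.34 (adjusted p = 0.0434) and Per3 -0.64 ± 0.15 (0.0439), both called, and in the second run -0.38 ± 0.35 and -0.31 ± 0.16, not called. Neither gene was called between the runs.

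The day 14 libraries differed from untreated old lungs in these genes. That comparison, which shares the day 14 lungs, called 31 genes (0.169%), 11 higher at day 14 (0.0598%) and 20 lower (0.109%). Among them were Dbp at 2.01 ± 0.38 (adjusted p = 0.00219), Nr1d2 at 0.93 ± 0.17 (0.00162), Nr1d1 at 1.096 ± 0.26 (0.0386) and Arntl at -0.67 ± 0.13 (0.00162). Dbp was at 5.95 to 16.3 CPM in the 5 untreated lungs. A clock score, the mean log2 CPM of 6 output genes less that of Arntl and Npas2, was 1.02 to 2.87 in day 14 lungs, -0.09 to 2.12 in day 56 lungs and -0.19 to 0.46 in untreated old lungs. With this score as a covariate, 19 genes were called between day 14 and day 56, 18 of them among the 37.

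Immediate early genes are transcribed within minutes of a stimulus, often through the factors CREB and SRF, and respond to handling and tissue dissociation as well as to growth signals. In old lungs, 15 of 16 such genes were lower at day 56, with a median log2 change of -0.36 and 9 at an unadjusted p under 0.05, against 11.5% of all genes. None was called. Fosb, an AP-1 subunit, was at 64.1 to 227 CPM at day 14 (median 76.2) and at 23.1 to 79.4 at day 56 (median 47.2), a log2 change of -1.11 ± 0.35 (adjusted p = 0.18). Summed over the list, old lungs were at 3720 to 6520 CPM at day 14 and 2695 to 4744 at day 56.

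In young lungs the same interval went the other way. There, 63 genes were called (0.342%), 61 higher (0.332%) and 2 lower (0.0109%), and 7 of the 16 immediate early genes rose, with a list median of 0.99. The summed list was at 1706 to 4781 CPM in young lungs at day 14 and 3353 to 7282 at day 56. The difference between old and young changes was called for 51 genes (0.277%), all with a lower change in old lungs, and for 12 of the 16 immediate early genes. Without replicate 4 of old day 14, which was the highest of its group in several of these genes, 18 genes were called, 3 of them on the list. Without any single one of the young day 14 replicates 3, 4 and 5, 4 of the list were called.

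Nr4a2, an orphan nuclear receptor induced by cyclic AMP, was among the genes whose change differed with age. Old lungs were at 23.3 to 81.3 CPM at day 14 (median 33.4) and 11.8 to 39.4 at day 56 (median 22.5). Young lungs were at 18.2, 21.5, 9.66, 10.7 and 7.91 CPM at day 14 and at 54.3, 29.5, 36.9, 56.9 and 21.6 at day 56. The lowest young day 56 lung, at 21.6 CPM, was thus barely above the highest young day 14 lung, at 21.5, while the old groups overlapped. Nr4a2 was named for its small p in the age difference, which uses these same lungs. How many of all genes separate the young groups was not counted. The change was -0.88 ± 0.25 in old lungs (adjusted p = 0.107) and 1.55 ± 0.33 in young (0.00891), a difference of -2.43 ± 0.41 (0.000359).

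Odc1 and Arrdc3 were called both in the old comparison and in the difference between ages. In young lungs Odc1 was at 46.3, 56.5, 43.4, 44.03 and 48.9 CPM at day 14 and at 56.9, 73.4, 60.7, 59.8 and 49.8 at day 56, a change of 0.33 ± 0.10 (adjusted p = 0.125). The old minus young difference was -0.70 ± 0.13 (0.00115), and it kept its call in all 27 fits that left out 1 lung. Old day 14 lungs were above all young day 14 lungs. The kinase Sik1 differed by -1.33 ± 0.23 (0.000359), the mitochondrial carrier Slc25a25 by -1.06 ± 0.18 (0.000359), and the potassium channel subunit Kcne4 by -1.75 ± 0.33 (0.00148). Nr4a1 and Fos, chosen after their values were seen, differed by -2.27 ± 0.46 (0.00394) and -1.65 ± 0.41 (0.0422). The age difference in Fos was lost in 18 of 34 alternatives.

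**Figure D4:**
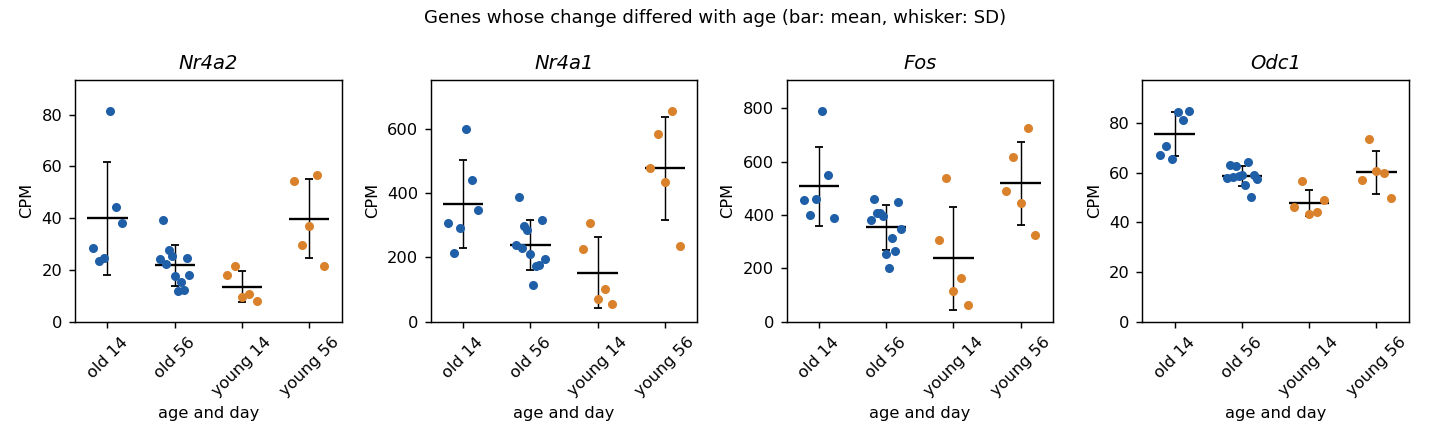
CPM of Nr4a2, Nr4a1, Fos and Odc1 in old (blue) and young (orange) saline lungs at day 14 and day 56. Points are lungs, bars means and whiskers SDs. From day 14 to day 56 the old means go down and the young means go up in each panel.

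The promoters of these 4 genes are shown because their changes had opposite signs in old and young lungs, and because genes of this kind are known to be induced through cyclic AMP. Sik1, Slc25a25, Kcne4, Arrdc3, Fosb and Atf3 also had opposite signs and a called age difference, and are not shown. The sequences are the 250 bases before the first listed RefSeq start of each gene, 5′ to 3′ on the gene's strand (GRCm38.p6). Other starts were not examined. The Nr4a1 window lies inside the annotated span of its gene, and the Odc1 window runs past the annotated start of Odc1. Capitals mark the letters TGACG or, on the other strand, CGTCA, the core of the site that CREB binds.
Nr4a2, chr2:57124004-57124253, minus strand: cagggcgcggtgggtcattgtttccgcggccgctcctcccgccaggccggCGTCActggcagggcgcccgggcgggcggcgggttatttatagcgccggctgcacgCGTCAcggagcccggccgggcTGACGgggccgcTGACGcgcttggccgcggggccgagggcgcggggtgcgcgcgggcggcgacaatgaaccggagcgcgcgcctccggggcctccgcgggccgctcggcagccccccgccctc
Nr4a1, chr15:101266596-101266845, plus strand: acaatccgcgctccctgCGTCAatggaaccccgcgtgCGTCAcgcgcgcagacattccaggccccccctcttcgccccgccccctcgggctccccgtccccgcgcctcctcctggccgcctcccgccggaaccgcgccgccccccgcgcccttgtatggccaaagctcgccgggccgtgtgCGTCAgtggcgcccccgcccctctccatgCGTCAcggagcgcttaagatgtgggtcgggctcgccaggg
Fos, chr12:85473640-85473889, plus strand: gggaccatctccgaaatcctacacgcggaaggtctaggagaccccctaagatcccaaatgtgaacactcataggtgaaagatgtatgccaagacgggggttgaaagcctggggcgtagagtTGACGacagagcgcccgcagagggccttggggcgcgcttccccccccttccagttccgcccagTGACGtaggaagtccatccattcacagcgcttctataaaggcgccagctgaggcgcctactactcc
Odc1, chr12:17544623-17544872, plus strand: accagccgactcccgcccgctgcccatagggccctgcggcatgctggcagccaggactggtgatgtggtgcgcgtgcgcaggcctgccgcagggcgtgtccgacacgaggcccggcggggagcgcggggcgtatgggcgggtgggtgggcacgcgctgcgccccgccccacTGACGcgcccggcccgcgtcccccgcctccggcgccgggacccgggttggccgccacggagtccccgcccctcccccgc
The motif occurs 4 times in the windows of Nr4a2 and Nr4a1, 2 times in Fos and 1 time in Odc1. Of all 32851 promoter windows of that length, 17.8% hold it at least once and 3.9% at least 2 times. Of the 16 immediate early genes, 13 were matched to a promoter, and the first window of 9 holds it. The 4 printed genes are thus picked examples. A match describes these letters and does not show that a factor binds there.

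A slope fitted through all 6 days from 14 to 56 called 760 genes (4.13%), 503 rising (2.73%) and 257 falling (1.4%). The steepest rises named were genes of lymphocytes: Eomes, a factor of cytotoxic and memory T cells, at 0.21 ± 0.06 log2 per week (adjusted p = 0.0147), Il2rb at 0.21 ± 0.05 (0.00604), Cd6 at 0.20 ± 0.05 (0.0108), the chemokine Ccl5 at 0.20 ± 0.06 (0.0376) and Cst7 at 0.19 ± 0.06 (0.0425). Among the steepest falls, predicted genes aside, were Fosb at -0.21 ± 0.05 (0.0115), Mir6236, Lars2, Nr4a2 and Atf3. These slopes share their end days with the comparison above. Of 16 T cell genes 5 rose, and without replicate 6 of day 56, the lung with the T cell sum of 1001 CPM, none did. Over all libraries left out in turn, the count of called genes ranged from 421, without that lung, to 1091.

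Over the 4 days between, 21 to 42, the slope called 1536 genes (8.35%), 1026 rising (5.58%) and 510 falling (2.77%). Of 20 proliferation genes, 19 rose. Mki67, the classical marker of cycling cells, was at 5.47 to 7.72 CPM in the 6 lungs of day 21 and at 12.1, 11.7, 25.7, 7.77, 5.99 and 152.5 in those of day 42. A single lung, replicate 6 of day 42, thus carried most of that level. Without it, 354 genes were called and none of the proliferation list. Fitted in edgeR on these 4 groups alone, the slope called no gene, with 3246 at an unadjusted p under 0.05. At day 56 the proliferation list had no call against day 14, at a median log2 change of 0.19.

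Among the falling genes of this slope was Gm42418, a locus that collects reads of ribosomal RNA, at -0.61 ± 0.10 log2 per week (adjusted p = 5.41e-05). Over all 6 days its slope was -0.22 ± 0.04 (0.000554). In the days between, Lars2 fell too, at -0.50 ± 0.08 (5.41e-05), and Mir6236, at -0.63 ± 0.11 (0.000153). In the compared groups Gm42418 was at 432 to 660 CPM at day 14 and 287 to 652 at day 56, not called. In the days between, it was highest in replicate 3 of day 21, at 4534 CPM, and replicate 5 of day 28, at 2627. Without these and replicate 6 of day 42 together, 276 genes were called in this slope, and the part of ribosomal reads in the slope was not tested.

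**Figure D5:**
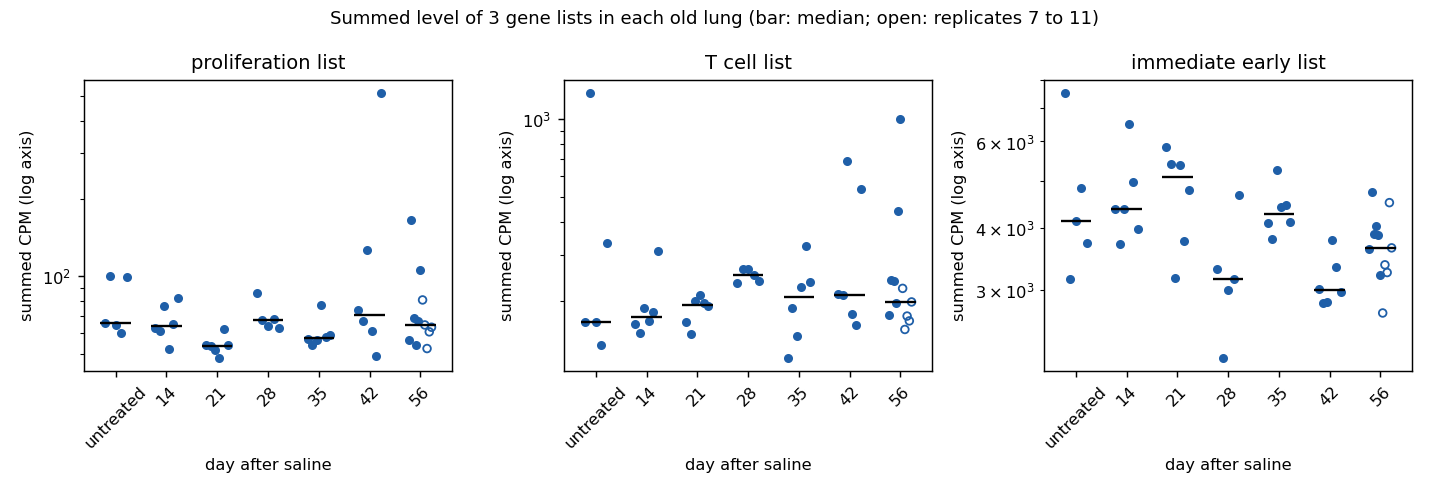
Summed CPM of the proliferation, T cell and immediate early lists in each old lung by day after saline, on a log axis, with untreated old lungs at the left; bars are medians and open circles replicates 7 to 11. The proliferation panel has 1 lung at 515 CPM on day 42, and the T cell panel has 1 lung at 1001 CPM on day 56 and 1 untreated lung at 1255.

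The drift was also set beside the difference between old and young lungs before any instillation, measured in lungs the comparison did not use. Old and young untreated lungs differed in 1021 genes (5.55%), 734 higher (3.99%) and 287 lower (1.56%) in old. Of the 25 called genes other than segments, 14 had the sign of that difference (56.0%), against 45.6% of all genes. One of the 25 was itself called there, Odc1, higher in old lungs by 0.38 ± 0.11 (adjusted p = 0.0185), opposite to its fall from day 14 to day 56. In untreated lungs 13 of 16 T cell genes were called higher in old, at a list median of 1.76. These values include the untreated old lung whose high T cell sum is given above. The part of that lung in them was not tested. Between day 14 and day 56 the young lungs had 22 of the 25 genes with the same sign as the old (88%), against 56.2% of all genes, and the difference between ages was called for Odc1 and Arrdc3. For 17 of the 25, the mean log2 CPM of untreated old lungs lay nearer day 56 than day 14. For 23 of the 25, the difference of day 14 from untreated old lungs had the opposite sign to the change to day 56. Both counts use the day 14 lungs by which the genes were picked, and that choice favours such values. The same shares over all genes were not taken, so the counts are no separate support. Whether day 14 stood apart, rather than the lung drifting, was not tested.

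Lists of slower processes gave no call between day 14 and day 56. None of 17 senescence genes, 21 interferon response genes, 15 complement genes, 15 genes of the unfolded protein response or 19 nuclear genes of oxidative phosphorylation was called, with medians of -0.08, 0.05, 0.08, -0.04 and -0.06. All 19 of the last list had intervals inside 1.5-fold, as had all 18 ribosomal protein genes. Of 15 p53 targets 10 were negative and 5 positive, from -0.33 to 0.18, at a median of -0.18. None was called, and 7 had an unadjusted p under 0.05, against 11.5% of all genes. Among those 7 were the falls of Trp53inp1 at -0.29 ± 0.09, Ccng1 at -0.27 ± 0.09 and Mdm2, which limits p53, at -0.20 ± 0.07. All 9 genes of MHC class II were positive, at a median of 0.15, with none called.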

How the data were processed

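RNA of each mouse lung was counted per gene by the authors, and the deposited values are raw counts of reads for 48794 genes, per the file headers. The submitters' processing notes name STAR 2.5.2 and featureCounts 1.5.1 among several tools, without their roles, and the build GRCm38. Strand setting and filters are not given in the sources used here. Gene names and positions came from GENCODE M21.

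Counts were fitted in edgeR 4.0.16 (R 4.3.3) with TMM scaling, filterByExpr (minimum count 10, total 15), 1 coefficient for each of 26 groups and robust quasi-likelihood F tests; 18396 genes were tested. A gene was called at a Benjamini-Hochberg adjusted p under 0.05. SEs are the log2 change divided by the root of F, and intervals are 95%. A second fit split day 56 by library number. DESeq2 1.42.0, other scaling, no filter, smaller fits, a clock covariate and leaving out each lung were alternatives. The test was checked on simulated data. CPM are counts scaled to a TMM-adjusted total of 1000000.

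Named genes were the 12 largest called rises and falls above an average log2 CPM of 1, in the same direction in both runs, without predicted genes or receptor segments, further called list members, 2 clock lists, the 5 steepest genes of the trend each way and the 5 clearest age differences; identity genes were added. The groups, members and lists were chosen with earlier results of these data known. Promoters came from RefSeq.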

Additional observations from a re-analysis of the deposited data

Results flagged for a closer look

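The sets screened were every named gene in old day 14, and the genes named for the age difference in young day 14 and day 56. Most sets were thus of old day 14, and old day 56, with 11 lungs, was not screened. In 70 sets of 5 or 6 lungs, each a named gene in a group, 8 had 1 lung far from the others for the group's range. Chance alone gives about 5% in independent sets, but these sets share lungs. In 7 of the 8 that lung was replicate 4 of old saline day 14. It was at 243 CPM for Arrdc3 (next lung 182), 227 for Fosb (next 124.5), 81.3 for Nr4a2 (next 44.4) and 76.05 for Atf3 (next 38.2). It was also at 283 CPM for Tef (next 205), 95.6 for Per3 (next 62.8) and 91.6 for Cry2 (next 78.6). For Cd6, replicate 6 of old day 14 was at 11.5 CPM (next 6.87).

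The change from day 14 to day 56 differed between old and young lungs, by the test of the difference itself in edgeR, for 10 named genes, each lower in old. Over all genes this test called 51 (0.277%), all with a lower change in old lungs. Nr4a2, Sik1, Slc25a25, Odc1 and Kcne4 were named for the smallest p in this same test. Nr4a1 and Fos were chosen after their values were seen, and Fos lost its call in 18 of 34 alternatives. The count of named genes and their shared direction are thus no separate support. The old minus young difference in log2 was -2.59 for Fosb (adjusted p = 0.0158), -2.43 for Nr4a2 (0.000359), -2.27 for Nr4a1 (0.00394) and -1.98 for Atf3 (0.00239). It was -1.75 for Kcne4 (0.00148), -1.65 for Fos (0.0422), -1.33 for Sik1 (0.000359) and -1.06 for Slc25a25 (0.000359). For Arrdc3 it was -0.74 (0.00183) and for Odc1 -0.70 (0.00115).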

How the results depend on the processing

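No paired analysis was possible because replicate numbers follow accession order here and link no lungs across groups. No named gene changed sign while called under any alternative run. Against 37 calls between day 14 and day 56, DESeq2 gave 66 (33 shared), no filter 14, the clock covariate 19, and the fit without the first run of day 56 libraries (replicates 1 to 6) gave 0; the fit on the 2 groups alone gave 42, of which 9 were shared. For the slope over days 14 to 56 (760), no filter gave 429, its groups alone 349, no first run 78, and leaving out 3 libraries together, an alternative added after seeing the data, 424. For days 21 to 42 (1536) the values were 1015, 0 on its groups alone, and 276. As a percent of 18396 genes, the first run against day 14 (0.207) had 0.375 with DESeq2, 0.0381 with no filter and 0.0272 on its groups alone. The second run (0) had 0.0652 with DESeq2, and the runs against each other (0.00544) had 0.0109 with DESeq2 and 0 on their own. No filter and groups alone gave 27 and 1 in young lungs (63), 31 and 7 for the difference between ages (51), 644 and 91 in untreated lungs (1021), and 16 and 1 for day 14 against untreated (31); the age difference without the second run (replicates 7 to 11) had 19. Leaving out 1 lung at a time gave 12 to 59 for the main comparison, 421 to 1091 and 354 to 2515 for the slopes, 7 to 253 in young lungs, 18 to 72 for the age difference, 323 to 1018 in untreated lungs and 7 to 58 for day 14 against untreated. In percent it gave 0 to 0.679 for the first run, 0 to 0 for the second and 0 to 0.0217 between the runs. Where these counts fell or rose, the cause was not tested, except that groups alone leave fewer residual samples. Depth limits genes of low level. Intervals cover only lungs of this series, and their width rests on the spread within all its groups.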

Other observations

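Between lungs of the same day, the SD of log2 CPM was over 1 for 195 genes at day 14 and 270 at day 56. The thymus list, of 2 measured genes, was at 42.9 and 87.3 summed CPM in replicates 5 and 6 of day 56 and at 8.80 to 17.4 in the other 9, and at 88.1 in replicate 6 of day 42. The measured genes were Themis and Cd8b1, and Cd8b1 is also in the T cell list. Rag1, Rag2, Dntt and Ptcra were not tested. Rag2 had 0 reads in 16 and Ptcra in 15 of the 17 compared lungs. The sums are therefore no measure of thymus tissue.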
